A study of Rattus norvegicus with 8 samples.

Results

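The nuclear genes of the mitochondrial respiratory chain and ATP synthase were compared in the hypothalamus of rat mothers, with and without exposure to TCDD. Members were chosen by the gene name that the array design gives a probe: names that begin with Nduf, Uqcr, Atp5 or Cox4 to Cox8, the names Sdha to Sdhd, and Cyc1. This gave 113 of 30367 probes and 90 of 26269 gene names, of which 88 were bright enough to test among 16574 genes. The hypothalamus, a part of the brain that governs hormones, feeding and maternal physiology, came from lactating Wistar dams on postpartum day 7. There were 4 control samples and 4 samples from dams given TCDD, the best studied dioxin, which binds the aryl hydrocarbon receptor (AhR), with 1 single-colour Agilent array per sample. How much TCDD was given, how and when is not stated in the labels. Nothing in them says whether the RNA of a replicate came from 1 animal or several, and p-values measure the spread between these 8 samples.

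The respiratory chain sits in the inner mitochondrial membrane and passes electrons from NADH (complex I) and succinate (complex II) through coenzyme Q, complex III and cytochrome c to oxygen (complex IV). Complexes I, III and IV pump protons, and complex V, the ATP synthase, makes ATP from the resulting gradient. Most subunits are encoded in the nucleus and imported, while a small core of the subunits of complexes I, III, IV and V is encoded in the mitochondrial genome. Neurons draw most of their ATP from this pathway, and several subunits of complex IV exist as isoforms that differ between tissues.

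Values are log2 of the processed signal relative to the array's 75th percentile, so that 0 is a signal at that percentile. The 75th percentile lay between 474 and 699 fluorescence units, and each array had between 61.7% and 66.7% of its probes well above background. The 11 hypothalamus markers examined, among them Oxt, Avp and Pomc, all passed the filter. All control arrays lay on one slide and all TCDD arrays on another, so slide and exposure cannot be told apart for any difference given here. In whole tissue, fewer cells of a type and less RNA per cell cannot be told apart either.

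Respiratory chain genes were strongly detected and lay close together in the 2 groups. On every one of the 8 arrays the same 108 of the 113 probes were detected well above background. No member passed the test across all genes (limma, Benjamini-Hochberg adjusted p under 0.05): 0 of 88, against 3 of 16574 genes, or 0.0181%. The smallest adjusted p of a member was 0.120, for Cox4i2. At an unadjusted limma p under 0.05 there were 7 members, 6 higher and 1 lower in TCDD dams. That is 7.95% of the members, against 11.0% of all genes tested (7.25% higher and 3.74% lower). In 5 members the 4 TCDD values all lay above the 4 control values, and in 0 all lay below. That is 5.68% of the members, against 7.31% of all genes (4.83% higher and 2.49% lower). Both shares are near those of all genes, and which of them was larger changed with the processing: with normexp background correction, where the members also numbered 7 and 5, 6.85% and 4.51% of all genes did. With 1 array left out the count of 5 moved to between 6 and 21, highest without control replicate 4. Of all genes, 9.06% to 13.7% did not overlap in these fits, also highest without that replicate.

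The members' differences were also small in size. The median difference, TCDD minus control, was -0.02 among the members and -0.01 among all genes, and 33 members were on the positive side and 55 on the negative. Among the members 37.5% were positive, against 46.1% of all genes. The members' share moved with the processing, down to 23.9% with median scaling or without control replicate 4 (39.0% and 46.4% of all genes). Without control replicate 2 it was 48.9%, against 47.1% of all genes, and with normexp 35.2%, against 37.3%. The difference was under 0.1 in size in 61 members (69.3%, against 60.8% of all genes), and its median size was 0.06 against 0.08. The members were measured somewhat more tightly than the average gene, with a median SD within groups of 0.09 against 0.12. The 95% confidence interval of a member extended a median of 0.15 to either side of its difference, or 1.11-fold. For 81 of the 88 members that interval lay within 0.5 of 0, so that a difference over 1.41-fold either way is outside it.

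**Figure D1:**
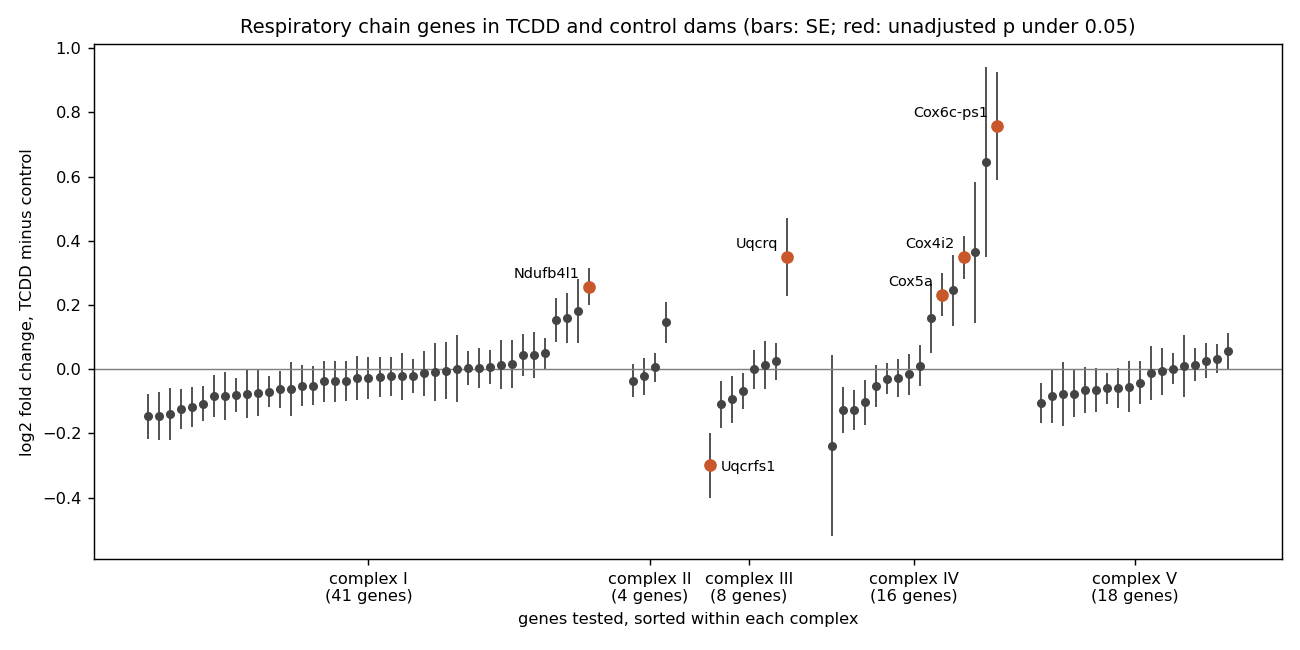
The vertical axis is the log2 fold change (TCDD minus control, n = 4 each) of the genes tested, apart from 1 that is not reported, with bars for the SE, and the horizontal axis sorts the genes within each complex. Red points are genes with an unadjusted limma p under 0.05. Complex V stays between -0.10 and 0.06, while complex IV spreads from -0.24 to 0.76.

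Complex I, the NADH dehydrogenase and entry point of most electrons, had 42 genes tested, 14 positive and 28 negative, with a median of -0.03. The difference was under 0.1 in size in 31 of them. Among the 7 core subunits, those that carry the electron path, 2 were positive and 5 negative, with a median of -0.02. Ndufs8, a core subunit that carries iron-sulfur clusters, gave -0.14 (SE 0.0812), and Ndufs7, another, gave 0.00 (SE 0.0615).

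The 30 accessory subunits of complex I, which surround the core and stabilise it, had a median of -0.03, with 10 positive and 20 negative. Ndufc1 led them by p at 0.15 (SE 0.0696, adjusted p = 0.479), and Ndufb7 followed at -0.15 (SE 0.0702, adjusted p = 0.511). Ndufb8, the brightest complex I probe, lay at 6.77, 6.80, 6.79 and 6.64 in control dams and at 6.44, 6.58, 6.66 and 6.74 in TCDD dams. Its difference of -0.15 (adjusted p = 0.544) came with TCDD replicates 1 and 2 below all control values and replicates 3 and 4 within their range. Ndufa4, now known as a complex IV subunit although named for complex I, stayed at -0.02 (SE 0.0539). The 3 assembly factors tested ranged from -0.06 (Ndufaf3) to 0.00 (Ndufaf1). Ndufaf2, another assembly factor, was well above background on 1 control array only and gets no fold.

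The lowest p in complex I belonged to a like-named gene and not to an established subunit. Ndufb4l1, named as a like gene of the accessory subunit Ndufb4, lay at 2.91, 3.02, 2.99 and 2.89 in control dams and at 3.23, 3.21, 3.28 and 3.10 in TCDD dams. All TCDD values were above all control values. The difference was 0.26 (SE 0.0579, adjusted p = 0.167), with a 95% interval from 0.12 to 0.39. Ndufb4 itself, on its brightest probe, differed by -0.01 (SE 0.0900). The longest run of bases that the Ndufb4l1 probe shares with either Ndufb4 probe is 5. Probes were compared only with each other and not with transcripts, so whether the Ndufb4l1 probe also reads Ndufb4 was not tested. Ndufa10 and Ndufa10l1 are read by probes at chr9:91654891-91654950 and chr9:91655487-91655546 of rn4, close to each other, and both were slightly lower in TCDD dams, at -0.11 and -0.08.

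Complex II, succinate dehydrogenase, also serves the TCA cycle and is wholly nuclear-encoded. Its 4 subunits ranged from -0.04 to 0.15, and none had an unadjusted p under 0.05. Sdha, the flavoprotein with the brightest complex II probe, lay between 3.52 and 3.59 in control dams and between 3.52 and 3.61 in TCDD dams, a difference of 0.01 (SE 0.0460). Under 4 of 13 alternative settings the sign of this near-zero value turned. Sdhb, the iron-sulfur subunit, and Sdhd, a membrane anchor, stayed at -0.02 and -0.04. Sdhc, the other membrane anchor, lay at 2.61, 2.84, 2.81 and 2.71 in control dams and at 2.83, 2.84, 2.95 and 2.93 in TCDD dams. Only the highest control value reached the TCDD range, and the difference was 0.15 (SE 0.0643, adjusted p = 0.461).

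Complex III, the cytochrome bc1 complex, held the only member with an unadjusted p under 0.05 and a lower signal. Uqcrfs1, the Rieske iron-sulfur protein that hands electrons towards cytochrome c1, lay at 3.38, 3.42, 3.22 and 3.15 in control dams and at 3.06, 3.21, 2.87 and 2.83 in TCDD dams. Only TCDD replicate 2 reached into the control range. The difference was -0.30 (SE 0.102, adjusted p = 0.329), or 0.812-fold. The remaining core subunits were Cyc1 (cytochrome c1) at -0.11, Uqcrc1 at -0.07 and Uqcrc2 at 0.00, so that all 4 were at or below 0.

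Uqcrq, a small accessory subunit, was higher instead. It lay at -4.12, -3.90, -3.65 and -3.72 in control dams and at -3.61, -3.66, -3.30 and -3.42 in TCDD dams. The groups overlapped narrowly, at a difference of 0.35 (SE 0.122, adjusted p = 0.339). This probe is dim, and with normexp background correction the difference was 0.10. Uqcr11, the brightest complex III probe, stayed at 0.01 (SE 0.0748), while its other probes gave -0.12 and -0.16.

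Complex IV, cytochrome c oxidase, spread more widely than the other complexes. Of its 16 genes, 8 were positive and 8 negative, and the difference was under 0.1 in size in only 5. At an unadjusted limma p under 0.05 there were 3, all higher, against 11.0% of all genes (7.25% higher and 3.74% lower). The 4 tissue isoforms and 2 like-named genes tested all differed by more than 0.1, while 5 of the 10 other subunits differed by less. Those isoforms were measured less tightly, with a median SE of 0.164 against 0.0661 among all members. Of the 10 other subunits 1 had an unadjusted limma p under 0.05. Their median size of difference was 0.077, against 0.076 among all genes. Cox4i2 is the isoform of subunit 4 known from lung and from the mural cells of brain vessels. It lay at 0.31, 0.45, 0.45 and 0.52 in control dams and at 0.80, 0.80, 0.87 and 0.66 in TCDD dams. Every TCDD value was above every control value. The difference was 0.35 (SE 0.0668), or 1.27-fold with a 95% interval from 1.14 to 1.42. The adjusted p was 0.120, and over the 21 alternatives it ranged from 0.0538, with array weights, to 0.335. Beside it, 7 of 8 endothelial and mural markers were on the positive side, 0 of 8 had an unadjusted p under 0.05, and their median difference was 0.06. Their summed level, in multiples of the 75th percentile, ranged from 5.68 to 6.67 in control and from 6.30 to 7.44 in TCDD dams. All 8 were detected, and their part in the Cox4i2 difference was not tested.

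Cox4i1, the common isoform of subunit 4, lay on the opposite side. It read 7.06, 7.07, 7.01 and 6.95 in control dams and 6.84, 6.79, 6.98 and 6.97 in TCDD dams. The groups overlapped, at -0.13 (SE 0.0621, adjusted p = 0.522). Its neighbour Cox4nb, whose current name Emc8 is that of an endoplasmic reticulum membrane complex subunit and not of a cytochrome oxidase subunit, differed by 0.25 (SE 0.109, adjusted p = 0.466). In RefSeq's GRCr8 the 2 genes start back to back, 54 bases apart, and this stretch is shown because the pair read from it lay on opposite sides of 0:
between Cox4nb and Cox4i1 starts (chr19:65630329-65630382, GRCr8, plus strand): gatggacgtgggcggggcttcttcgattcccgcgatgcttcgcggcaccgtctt

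Cox5a, an accessory subunit of the matrix side, lay at 4.12, 4.35, 4.31 and 4.16 in control dams and at 4.54, 4.43, 4.48 and 4.41 in TCDD dams. The groups did not overlap, and the difference was 0.23 (SE 0.0680, adjusted p = 0.258). Its partner in name, Cox5b, stayed at -0.05 (SE 0.0654). Cox7c had a large but unsure difference of 0.64 (SE 0.295, adjusted p = 0.483). Its probe holds 23.3% GC, and control replicate 1 read -0.85 against 0.08, 0.40 and 0.53 in the other control dams and 0.34 to 0.95 in TCDD dams.

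The largest difference of a member was that of Cox6c-ps1, an annotated pseudogene of the small subunit Cox6c. Its bright probe lay at 0.17, 0.58, 0.89 and 1.01 in control dams and at 1.42, 1.30, 1.53 and 1.42 in TCDD dams. The TCDD dams were tight and above all control dams, which spread widely. The difference was 0.76 (SE 0.169, adjusted p = 0.167), or 1.69-fold. A second probe of the same record was well above background on 0 of the 8 arrays, although the 2 share a run of 34 bases. Both are shown because they disagree, with the shared run in capitals:
Cox6c-ps1, bright probe (chr19:54398139-54398198, rn4, minus strand): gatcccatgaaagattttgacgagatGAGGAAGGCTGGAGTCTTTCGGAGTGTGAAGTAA
Cox6c-ps1, probe not above background (chr19:54398113-54398172, rn4, minus strand): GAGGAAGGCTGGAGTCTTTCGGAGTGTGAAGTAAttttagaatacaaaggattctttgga
The bright probe reaches further towards the 5′ end and the dim one towards the 3′ end. The parent gene Cox6c, whose own probe shares at most 9 bases in a row with these, lay at -0.13 (SE 0.0715). Pseudogene and parent can share signal from like sequence, so the source of the bright signal is uncertain.

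**Figure D2:**
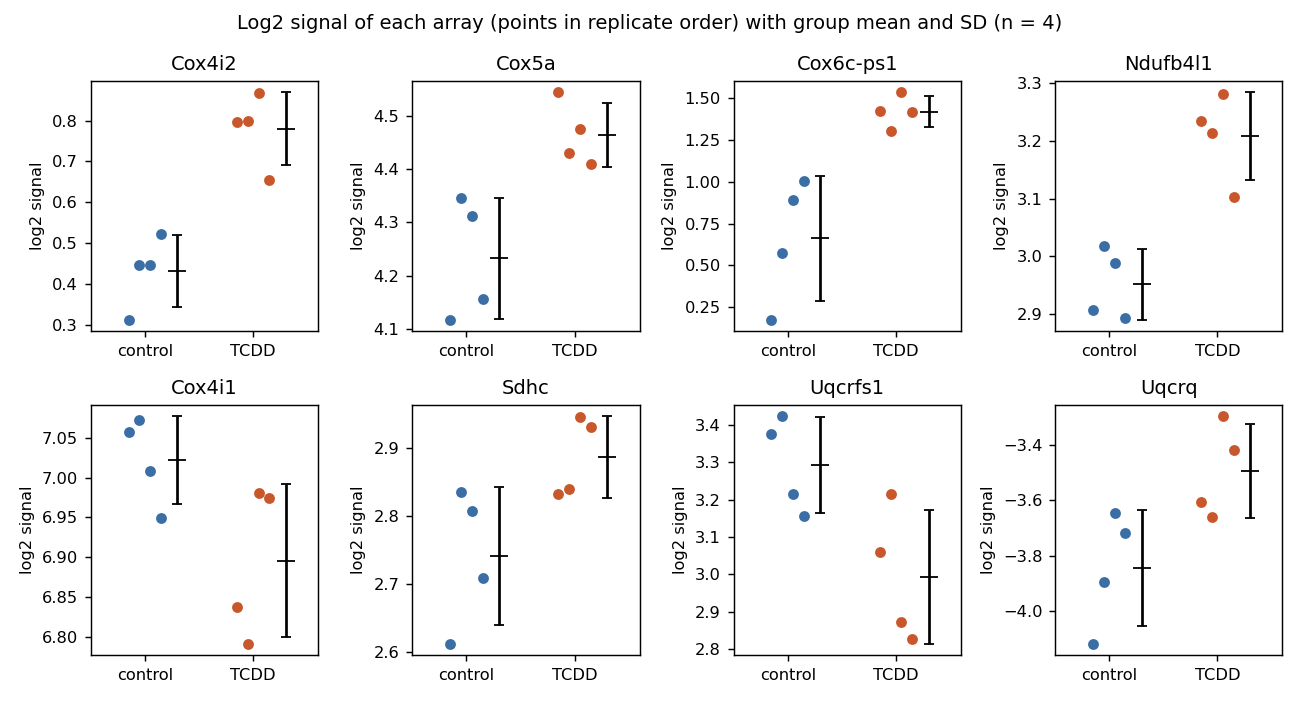
Each panel plots the log2 signal of 1 gene on the 8 arrays (points, replicates 1 to 4 from left to right in each group), with the group mean and SD (n = 4). In Cox4i2, Cox5a, Cox6c-ps1 and Ndufb4l1 the groups do not overlap, while in Cox4i1, Sdhc, Uqcrfs1 and Uqcrq they do, and each panel has its own vertical scale.

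The other isoform sets of complex IV showed no clear shift. Cox6a1, the common isoform and the brightest member of the complex, stayed at -0.03 (SE 0.0489). Cox6a2, the heart and muscle isoform, ranged from -0.07 to 0.89 in control dams and from -0.41 to 0.62 in TCDD dams, a difference of -0.24 (SE 0.281). Cox8a stayed at -0.03, and Cox8b, another muscle isoform, differed by 0.36 (SE 0.219, adjusted p = 0.620) at a dim signal. Beside these, 4 of 10 skeletal and cardiac muscle markers could be tested, 2 positive and 2 negative, 1 of them at an unadjusted p under 0.05 and without overlap (Actc1, higher by 0.46, adjusted p = 0.0575). Ckm, Myh2 and Myl2 were not above background on any array. The summed muscle markers ranged from 1.93 to 2.10 in control and from 2.06 to 2.26 in TCDD dams, and their part in these values was not tested. Cox8c, a testis isoform, was above background on 0 arrays. Cox6b2 differed by 0.16 (SE 0.109), and Cox7a2l, which joins complexes III and IV into supercomplexes, by -0.02 (SE 0.0649). Cox7a2 differed by 0.01 (SE 0.0637) on its brightest probe. A second Cox7a2 probe, well above background on every array, gave -0.13 (SE 0.0532, adjusted limma p over all probes = 0.436).

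Complex V, the ATP synthase, was the most uniform. Of 18 genes, 17 differed by less than 0.1, 12 were negative and 6 positive, the median was -0.05 and 0 had an unadjusted p under 0.05. In the F1 head and stalk, Atp5d (the delta subunit) led with 4.30, 4.32, 4.23 and 4.08 in control dams and 4.11, 4.17, 4.15 and 4.09 in TCDD dams. The groups overlapped, at -0.10 (SE 0.0626, adjusted p = 0.618). The catalytic subunit Atp5b and its partner Atp5a1 gave -0.05 (SE 0.0801) and -0.04 (SE 0.0680), and Atp5e gave 0.00. Of the 10 genes of the membrane part and the peripheral stalk, 3 were positive and 7 negative. Atp5f1, a stalk subunit, gave -0.06 (SE 0.0488), and Atp5i, the brightest probe of the complex, -0.08 (SE 0.10). The 3 genes of the c ring, which encode the same mature protein, gave -0.01 (Atp5g1), -0.06 (Atp5g2) and -0.08 (Atp5g3). Atp5sl, whose current name Dmac2 is that of an assembly factor of complex I, gave -0.08. Atp5s, whose current name Dmac2l is that of a gene like Dmac2, gave 0.01.

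Where a gene had several probes, they often differed. Among 17 members with several tested probes the sign differed in 8, and the median gap between the highest and lowest probe was 0.11, larger than the median size of a member's difference. Atp5g3 is the clearest case. Its bright probe gave -0.08 (SE 0.0739), and its other probe lay at 1.74, 1.79, 1.61 and 1.67 in control dams and at 2.22, 1.86, 2.04 and 1.94 in TCDD dams. The groups of that second probe did not overlap, at 0.31 (SE 0.0840, adjusted p over all probes = 0.240). A dim second probe of Ndufab1, the mitochondrial acyl carrier protein, cleared the background limit on all 4 control arrays but on 2 of the TCDD arrays. It entered the test through the control group, so its fold is not given, although the counts and the gap above include it. The bright probe gave -0.05. A second Atp5d probe was above background on 3 control arrays and 0 TCDD arrays and was not tested.

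The composition of the probes moved with the differences. In 3 tested member probes under 35% GC the median difference was 0.15, in 32 probes from 35% to under 40% it was 0.01, in 18 probes from 40% to under 45% it was -0.04 and in 56 probes of 45% or more it was -0.04. Over all tested probes of the array the medians of these bins were 0.10, 0.01, -0.01 and -0.03. In both sets the probes lowest in GC had the highest median, and the part of GC in any single difference was not tested.

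The subunits encoded in the mitochondrial genome were measured by 13 probes, found by their position on the mitochondrial chromosome. All 13 were well above background on every array, with 7 positive and 6 negative differences, a median of 0.00 and 0 with an unadjusted p under 0.05. The complex IV subunits 1, 2 and 3 gave -0.05 (SE 0.0692), 0.14 (SE 0.118) and -0.04 (SE 0.0799). Cytochrome b, the complex III subunit, gave 0.04 (SE 0.107), and the ATP synthase subunits a and 8 gave 0.06 (SE 0.0503) and -0.09 (SE 0.0711). Chain 6 of NADH dehydrogenase is encoded on the other strand from the rest. It lay at 0.17, 0.10, -0.20 and -0.08 in control dams and at 0.12, 0.06, 0.32 and 0.39 in TCDD dams. Its difference of 0.23 (SE 0.106, adjusted p = 0.501) had the smallest p of the set, and the groups overlapped. The difference of largest size, 0.28 (SE 0.196), belongs to a probe named by a GenBank record that mixes annotations, so its product is not named here.

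**Figure D3:**
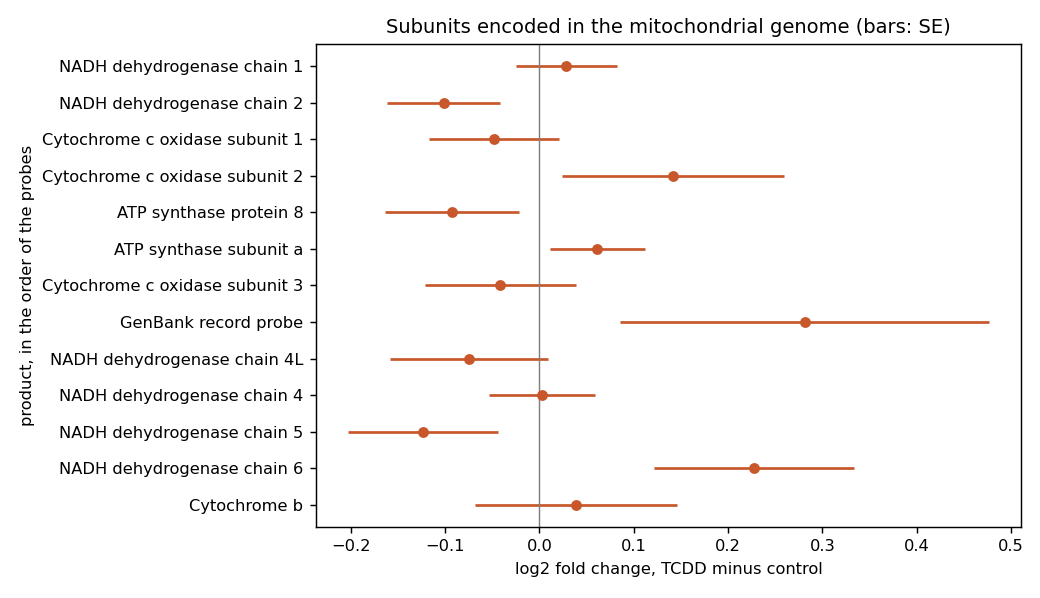
The horizontal axis is the log2 fold change (TCDD minus control, n = 4 each) of the 13 probes of the mitochondrial genome, with bars for the SE, listed in the order of the probes. The values run from -0.12 to 0.28 on both sides of 0.

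Single arrays moved most nuclear members together. The number of the 88 members above their own mean over the 8 arrays was 61, 72, 44 and 10 in control replicates 1 to 4, and 42, 26, 56 and 47 in TCDD replicates 1 to 4. Control replicate 2 stood highest and control replicate 4 lowest. Among all genes tested, between 7545 and 9524 of 16574 were above their mean on an array, a narrower range relative to their number. That range depended on the scaling, and with median scaling it was 6053 to 10890. With the percentile over spots TCDD replicate 3 stood highest among the members, at 75, and control replicate 4 lowest, at 9. On control replicate 4 the members' median deviation was -0.07, and each complex was low there: 3 of 42 genes of complex I, 0 of 4 of complex II, 1 of 8 of complex III, 2 of 16 of complex IV and 4 of 18 of complex V were above their mean. On control replicate 2 the counts were 37, 4, 6, 8 and 17, so complex IV was not raised there. The SD of the array medians was 0.07 among control and 0.02 among TCDD dams. The spread among control dams was thus larger than the difference of -0.02 between the group means of these medians.

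Genes of the mitochondrial ribosome, which translates the mitochondrial messages, had a like profile over the arrays. Of 69 genes, 53, 56, 36 and 9 were above their mean in control replicates 1 to 4, and 35, 17, 37 and 28 in the TCDD dams. The mitochondrial genome probes did not: 8, 2, 10 and 9 of 13 in the control dams, and 3, 7, 8 and 11 in the TCDD dams. Of 87 genes of the cytosolic ribosome, 34, 47, 32 and 63 were above their mean in the control dams. In the TCDD dams 18, 68, 63 and 56 were, so joint shifts on single arrays were not limited to mitochondrial genes. Control replicate 4 was also the control with the highest red blood cell markers. Hbb, a beta globin, lay at 5.0, 5.14, 5.42 and 6.42 in control dams and at 5.92, 6.72, 6.31 and 6.55 in TCDD dams. All 5 red cell markers were detected and on the positive side, 4 with an unadjusted p under 0.05. Their summed level ranged from 173 to 459 in control and from 295 to 538 in TCDD dams, and their part in the respiratory chain values was not tested.

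**Figure D4:**
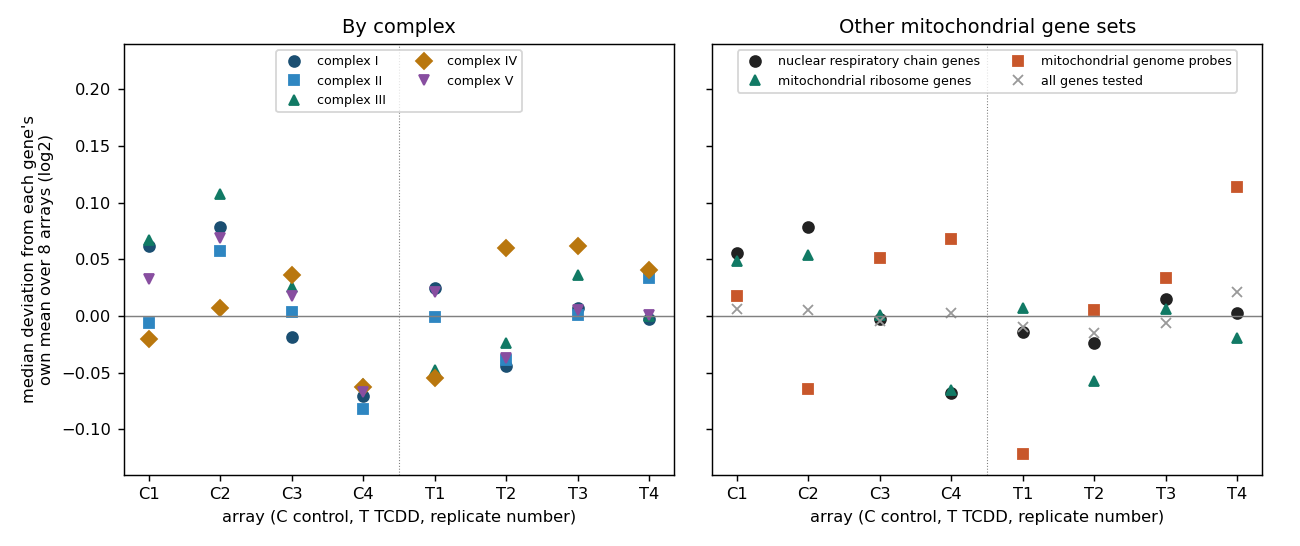
The vertical axis is the median, over the genes of a set, of the deviation from each gene's own mean over the 8 arrays (log2), and the horizontal axis lists the arrays. On the left are the 5 complexes, all low on control replicate 4, and on the right all nuclear members, which share that low point with the mitochondrial ribosome but not with the mitochondrial genome probes.

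Other genes of the pathway were read from lists made by function, though with earlier results of these data known. None of their genes passed the test across all genes, and the gene called first in a list has its smallest p. Of 21 regulators of mitochondrial biogenesis and genome upkeep, 0 were higher and 3 lower at an unadjusted limma p under 0.05 (over all genes 7.25% were higher and 3.74% lower), with a median of -0.01. The coactivator Ppargc1a gave 0.01 (SE 0.127), Nrf1 0.07 (SE 0.105), the ETS factor Gabpa -0.01 (SE 0.0589) and Tfam, which packs and transcribes the mitochondrial genome, 0.06 (SE 0.0521). Mterfd1, of the mitochondrial termination factor family, lay at -0.12, -0.13, -0.10 and -0.22 in control dams and at -0.39, -0.33, -0.30 and -0.36 in TCDD dams. The groups did not overlap, at -0.20 (SE 0.0490, adjusted p = 0.197). The other 2 were Polrmt, the mitochondrial RNA polymerase, at -0.15 (SE 0.0502, adjusted p = 0.335), and Polg, the mitochondrial DNA polymerase, at -0.13 (SE 0.0505, adjusted p = 0.378).

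Among assembly factors outside the naming rule, 0 of 6 for complex I had an unadjusted p under 0.05, with Ecsit first at -0.12. Of 4 for complexes II and III, 1 was lower: Bcs1l, which inserts the Rieske protein into complex III, at -0.22 (SE 0.0800, adjusted p = 0.360). Of 11 for complex IV, 1 was higher, the assembly protein Cmc1 at 0.36 (SE 0.104, adjusted p = 0.251), and of 6 for complex V 0 were, with the inhibitor Atpif1 first at -0.09. Of 13 genes for cytochrome c and coenzyme Q synthesis 0 had an unadjusted p under 0.05, with Coq9 first at -0.09 and cytochrome c itself (Cycs) at -0.06. In the TCA cycle 1 of 17 was higher and 1 lower, with pyruvate carboxylase (Pc) first at -0.14. Among 11 membrane carriers 1 was higher, the phosphate carrier Slc25a3 at 0.13 (SE 0.0450, adjusted p = 0.353). In glycolysis 1 of 16 was higher and 1 lower, with hexokinase 1 (Hk1) first at 0.13. Of the mitochondrial ribosome genes 2 were higher and 1 lower of 69, with Mrps15 first at 0.26, and of 87 cytosolic ribosome genes 6 were higher and 0 lower, with Rps4y2 first at 0.25. Of all genes tested 7.25% were higher, so 6 of 87 is a share near the background. The medians of these lists lay between -0.13 and 0.00.

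Motifs known for this pathway, those of NRF1 and the ETS factors, were in a larger share of the members' promoters than of promoters at large. RefSeq windows (GRCr8) were found for 76 of 90 members, and the 250 bases before the start were searched on both strands. The full palindromic NRF1 motif was in 5 members (6.58%) and in 0.849% of 27457 genes. Its shorter form GCATGCGC, which every full motif holds, was in 10 (13.2%, against 2.38%). The ETS motif CCGGAAG, which GABPA binds, was in 21 members (27.6%, against 7.74%). The YY1 motif AAGATGG was in 3 (3.95%, against 4.63%), the ERRalpha motif TCAAGGTCA in 1 (1.32%, against 0.368%) and the TATA box TATAAA in 5 (6.58%, against 13.1%). The AhR response element TNGCGTG was in 3 members (3.95%, against 4.26%), a share close to that of all genes. The 27457 genes were neither limited to those tested here nor matched to the members for base composition. Whether the larger shares are particular to this pathway was therefore not tested. A match is a run of letters, not a binding site. The window of Atp5o (chr11:44657508-44657567, GRCr8, minus strand) shows the NRF1 motif, and that of Ndufb7 (chr19:41477353-41477412, GRCr8, minus strand) the AhR motif, both in capitals:
Atp5o, NRF1: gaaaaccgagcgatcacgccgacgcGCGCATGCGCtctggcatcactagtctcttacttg
Ndufb7, AhR response element: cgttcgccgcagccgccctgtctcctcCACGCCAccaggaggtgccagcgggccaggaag
The 3 members with the AhR motif did not share a direction: Ndufb7 at -0.15, Ndufa7 at 0.18 (SE 0.10) and Cox4i1 at -0.13. The 60 bases around the match overlap a neighbouring gene in Ndufa7 (Rps28) and in Cox4i1 (Emc8, the array's Cox4nb). Atp5o, with the full NRF1 motif, stayed at -0.01 (SE 0.0833).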

How the data were processed

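Hypothalamic RNA of 8 rat dams was measured on Agilent 4-array slides in 1 colour. Per the file headers, Agilent Feature Extraction 10.7.1.1 gave each spot an intensity, background-subtracted and detrended within its array, and probe coordinates are on rat build rn4. The authors also deposited a table of intensities on a linear scale. Its columns all have a median of 65.1, as quantile normalization gives. The sources do not state how it was centred, and it was used as an alternative.

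The 1377 control spots and outlier spots were left out, spots of a probe were averaged as log2 values, and the 75th percentile of each array was subtracted. A probe was tested if well above background on all 4 arrays of a group. A gene was read from its brightest such probe. Groups were compared with limma 3.58.1 (lmFit, eBayes, 2-sided) in R 4.3.3, with Benjamini-Hochberg adjustment over 16574 genes and a threshold of 0.05. The fit was checked on simulated data. Alternatives concerned background, scaling, the authors' table, the filter, probes, variance, array weights, position 1 arrays, replicate block and each array left out. The number of arrays limits the precision. Array names are used in the text; all 90 matched a current symbol and 18 differ from it. Plots were made in Python 3.11.15 with matplotlib 3.10.9.

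The members and lists were chosen with earlier results of these data known. Named genes are, per complex, the 2 smallest p and the brightest probe, those whose groups do not overlap, isoform sets, members not above background, and the smallest p of each list. Others were named after their values were seen, as were the mitochondrial genome probes, which the listed symbols did not match, and the motifs' examples. Cox6b1, Cox7a1 and Ndufa4l2 were not analysed here. The values of 1 member that counts include are not reported here.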

Additional observations from a re-analysis of the deposited data

Results flagged for a closer look

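Among 56 groups of 4 arrays tested for a single far value, 1 stood out, and chance alone flags about 1 in 20 groups. Control replicate 1 of Cox8b, a dim muscle isoform, read -2.63 against -3.42, -3.35 and -3.29 in the other control dams, a gap of 0.834 of the group's range.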

How the results depend on the processing

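No respiratory chain member passed the adjusted threshold under any of the 21 alternatives. The members' median difference stayed negative, from -0.04 to -0.01 over the 13 alternatives and from -0.05 to -0.00096 with 1 array left out. Counts moved more. Genes called over the array numbered 3, but 22 with normexp, 28 when all 8 arrays had to be above background, 34 with trend and robust variance, 96 with array weights, 0 without a filter and 0 with the replicate block; leaving out 1 array gave 0 to 7 (7 without control replicate 3, 1 without control replicate 1, 2 without TCDD replicate 1, 0 without any other). Members at an unadjusted limma p under 0.05 numbered 7 of 88, but 13 with trend and robust variance and 12 with array weights (8 higher, 4 lower). Of all genes 11.0%, 10.8% and 14.3% did, in the same order. With every probe by itself 11 of 109 member probes did (7 higher, 4 lower), against 10.8% of all probes. With 1 array left out 6 to 13 members did, against 8.23% to 12.7% of all genes. Quantile normalization gave 7 higher and 3 lower in place of 6 and 1, against 11.2% of all genes. Members whose groups do not overlap numbered 5 of 88, against 7.31% of all genes, but 10 without both position 1 arrays, against 15.6%. With 1 array left out they numbered 6 to 21, against 9.06% to 13.7% of all genes. There were 8 without control replicate 1 or TCDD replicate 3, and 9 without TCDD replicate 2. Among all genes this share was also larger in every fit with fewer arrays. Both highest leave-one-out counts came without control replicate 4 (13, of which 6 lower, and 21, against 13.7% of all genes not overlapping). Small differences turned sign. Under normexp Cox6a1 gave 0.026, Cox7a2 -0.028 and Cox7a2l 0.0172. Cox7a2 and Sdha gave -0.0163 and -0.0101 under quantile normalization, and -0.0153 and -0.00953 in the authors' deposited table. Under median scaling Cox7a2 gave -0.0106, Sdha -0.0153 and Uqcr11 -0.00641. The mean of probes gave Atp5g3 0.12, Cox7a2 -0.0588 and Uqcr11 -0.0856. Array weights gave Sdha -0.00598, leaving out the position 1 arrays gave Uqcr11 -0.00027, and the percentile over spots, chosen after seeing the data, gave Atp5g1 0.00742. With 1 array left out, the ranges were -0.0599 to 0.0268 for Atp5g1, -0.016 to 0.0623 for Cox7a2, -0.0495 to 0.0256 for Cox7a2l, -0.0598 to 0.00403 for Cox8a, -0.0573 to 0.00163 for Ndufa4, -0.0126 to 0.0171 for Sdha and -0.0369 to 0.0567 for Uqcr11. The cause of these changes was not tested. The labels do not say whether replicate numbers pair the samples. Correlations of same-numbered samples were 0.228, -0.0031, -0.046 and 0.104, and the highest with another number were 0.0778, 0.181, 0.192 and 0.331. Only for replicate 1 was the same-number value the higher one, and such correlations cannot settle a pairing. Position 1 arrays are those of replicate 1 in both groups. With the replicate block 9 members had an unadjusted limma p under 0.05, against 12.7% of all genes.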
